A study of Arabidopsis thaliana with 141 samples.

Results

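The step between 10 and 15 min of flg22 treatment was measured in 4 RNA-seq libraries of Arabidopsis thaliana, 2 taken at 10 min (title WT_flg22_10m) and 2 at 15 min (WT_flg22_15m), of 141 libraries in the series. They were chosen by title, and all genes were tested. Every library came from 7-d-old wild-type seedlings in liquid medium that received 100 nM flg22, with 8 seedlings pooled per RNA. The same course holds 2 libraries each at 0 min (water), 5, 30 and 60 min, and water at 0 min is its only control, so the passage of time and handling cannot be told apart from the peptide. Libraries of a second seedling set, named B2 in the labels, served as independent samples. Its wild-type seedlings were also 7 d old and received 10 uM 3MBiP, an inhibitor aimed at engineered kinases, before 2 nM flg22 or wounding by forceps. B2 also holds seedlings of lines labelled impk36 and impk4, of the same age and with the same inhibitor. All 36 of its libraries were fitted together, so these lines entered its filter, scaling and spread, but only wild-type groups were compared.

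Flg22 is a stretch of bacterial flagellin that plants recognise at the cell surface. The receptor kinase FLS2 binds it together with the co-receptor BAK1, and cytoplasmic kinases such as BIK1 pass the signal to the NADPH oxidase RBOHD, to calcium channels and to a cascade of mitogen-activated protein (MAP) kinases. Transcription factors of the WRKY, ERF and zinc finger families are among the first genes switched on, and genes of secretion, defence metabolism and hormone signalling follow.

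Between 20.5 and 24.9 M counts were assigned to genes in each of the 4 libraries. Replicate 1 at 15 min stood apart from the other 3, with 23.2% of its alignments not unique against 7.17 to 8.96%. Within the 1657 genes that rose, replicate 2 at 15 min lay above replicate 1 for 71.2%, against 52.7% over all genes tested and 54.9% for the same comparison at 10 min. The part of that library in the results was examined by leaving it out. Marker genes of photosynthetic tissue summed to 7.36e+04 to 7.96e+04 counts per 1e6 assigned counts (CPM, here without scaling factors) and root markers to 157.8 to 178 CPM, each with a count for all 20 and all 12 members. All 7 flower and pollen markers had a count too. They summed to 48.5 and 46.0 CPM at 10 min and to 36 and 36.8 CPM at 15 min, without overlap. SEP3, a floral regulator, held most of these counts (2060 at 10 min and 1446 at 15 min) and fell (-0.35, adjusted p = 0.00026). PI, the next highest, had 113 and 93 counts and did not pass, nor did AG. The other members had too few counts to be tested. The part of these markers in the genes that fell was not tested. The 6 seed storage markers summed to 0.44 and 0.32 CPM at 10 min and to 0.29 and 1.29 CPM at 15 min. Among them 1 had no count in any of the 4, and 0 had enough counts to be tested. Reads from whole seedlings do not separate fewer cells of a type from less RNA per cell. No source states that the replicates came from separate cultures, so p values measure only the spread between these libraries.

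Over the 5 min, 2142 of 20871 genes tested (10.3%) changed at an adjusted p under 0.05 (edgeR's quasi-likelihood test with Benjamini-Hochberg adjustment). Of these 1657 rose (7.94%) and 485 fell (2.32%). The rises were larger: of 574 genes that changed at least 2-fold (2.75%), 534 genes rose (2.56%) and 40 fell (0.192%). The median log2 change was 0.69 among the genes that rose and -0.36 among those that fell. Genes that rose held 6.79% of all normalised counts at 10 min and 10.9% at 15 min.

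The direction of the calls moved with the scaling. With total counts in place of TMM factors, 1461 genes were higher and 719 lower, a share of 67.0% higher against 77.4%, and the median of all genes shifted to -0.03. The count of genes that fell also moved with single libraries. Without either library of 10 min 319 genes fell, without replicate 2 at 15 min 337 and without replicate 1 at 15 min 247. In the last case 226 of the 485 falls were called again, against 1359 of the 1657 that rose. Beside the 10.3%, 46.8% of all genes tested had libraries at the 2 times that did not overlap. A permutation of 2 libraries against 2 cannot give an exact p below 0.333, so single genes rest on the spread that edgeR estimates over the 12 libraries of the course. Replicates differed most at 15 min, with a Pearson chi-square per degree of freedom of 6.00. It was 3.44 at 10 min and 2.19 to 3.86 at the other times. A spread shared over the times may therefore be too narrow for the 15 min libraries.

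Some of the steepest rises were of genes with under 1 CPM in water. WRKY30 (AT5G24110), a WRKY transcription factor, stood at 7.40 and 8.85 CPM at 10 min and at 63.2 and 78.0 CPM at 15 min, an 8.72-fold rise and a log2 change of 3.12 ± 0.11 (± standard error, n = 2 per time; adjusted p = 4.6e-13). Both libraries at 15 min were below the 591 and 596 CPM of 30 min. PER4 (AT1G14540), a secreted class III peroxidase, went from 8.69 and 11.2 CPM to 58.9 and 72.3 CPM (2.73 ± 0.12, adjusted p = 1.4e-10). The locus AT4G28460, which has no symbol in the annotation, rose from 1.71 and 2.87 CPM to 19.3 and 23.9 CPM (3.26 ± 0.16). For WRKY30 and PER4, libraries that did not overlap were a condition of the ranking that follows. Of all genes tested 46.8% met that condition.

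Among genes with a mean of at least 5 CPM and libraries that did not overlap, the 15 with a symbol and the largest rises covered receptors, enzymes and membrane proteins. Receptor-type genes were the kinases CRK14 (2.76 ± 0.13) and CRK31 (2.71 ± 0.13), the receptor-like protein RLP2 (2.68 ± 0.15) and the kinase CCR4 (AT5G47850, a relative of the maize receptor kinase CRINKLY4; 2.56 ± 0.08). The enzymes were LOX4 and LOX3, lipoxygenases of the jasmonate pathway, PER4 and the patatin-like phospholipase PLA2A (2.50 ± 0.09). MLO6 (2.54 ± 0.20), a membrane protein of the powdery mildew susceptibility family, the ankyrin-repeat RING ligase XBAT34 (2.52 ± 0.09) and the MAP kinase MPK11 (2.38 ± 0.11) also rose. DMP1, BPS3 and LHT7 rose by 2.36 to 2.61. LHT7 rested on uneven libraries at 10 min (0.721 and 2.82 CPM), and its call was lost when only the 4 libraries were fitted (adjusted p = 0.16), as was that of LOX4 (0.062). MLO6, LHT7 and DMP1, and below also WRKY33, WRKY40, WRKY53, ORA47, SOBIR1, EFR, FLS2, BAK1, RLP23, WAK2, FRK1, MPK3, MPK4, MPK6, MKK4, MKS1, CPK28, CML24, TCH3, RBOHA, RBOHB, RBOHE, PUB23, SARD1, JAZ10, ARR6, ARR8, ARR9, EBF2, BBX14, SAUR6 and ACA1, overlap other annotated genes. The kit does not mark strand, so reads in a shared stretch cannot be told apart. Alignments ambiguous between genes, 1.33 to 1.63% in the 4 libraries, were not counted to genes.

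Lists counted from here on were chosen with earlier results of these data known, and some genes are in more than 1 list. Many transcription factor genes rose. Of 40 WRKY genes tested, 22 rose and 0 fell, with a median log2 change of 0.58 against 0.00 over all genes tested. WRKY46 rose by 1.90 ± 0.08 and WRKY22 by 1.40 ± 0.06. WRKY33, a regulator of camalexin synthesis, was at 208 and 207 CPM at 10 min and at 564 and 629 CPM at 15 min (1.52 ± 0.07, adjusted p = 5.7e-15). At an unadjusted p under 0.05, and by DESeq2, 0 members of the list fell, and the same held for the cytoplasmic kinase and MAP kinase lists and the CRK and VQ families below, while 1 calcium gene fell at the unadjusted p and 0 by DESeq2. The list leaves out some WRKY genes. Counted by annotation, a family chosen after values were seen, 23 of 58 rose and 1 fell: WRKY49 went from 8.23 and 6.84 CPM to 4.95 and 5.42 CPM (-0.54 ± 0.15, adjusted p = 0.019). That call was lost without replicate 1 at 10 min (adjusted p = 0.28) or either library of 15 min (0.16 and 0.056). The 18 list members that did not pass included WRKY55 at -1.01 and WRKY60 at 0.21.

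Of 28 early ERF, CBF and zinc finger genes, 22 rose and 1 fell (median 1.08). The zinc finger repressor ZAT11 rose by 2.00 ± 0.09, STZ by 1.22 ± 0.06 and ERF5 by 1.31 ± 0.07. CBF2, a cold-response activator, went from 7.44 and 6.37 CPM to 11.7 and 14.8 CPM (0.94 ± 0.15, adjusted p = 4.9e-05) and was at 1.34 and 2.2 CPM at 30 min. RAP2.6 was the member that fell, from 7.89 and 7.96 CPM to 4.71 and 4.69 CPM (-0.75 ± 0.14). At 10 min against 0 min 26 members of the list had risen, with a median of 3.35, where 9.77% of all genes were called, 6.32% higher and 3.45% lower. That comparison shares the 10 min libraries with the step.

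MYB and NAC factors were split. MYB15 (2.08 ± 0.11), NAC036 (1.99 ± 0.09) and MYB51 (1.36 ± 0.07), an activator of indole glucosinolate synthesis, were among 8 of 14 that rose. NAC055 (-0.95 ± 0.18) and MYB34 (-0.25 ± 0.07) fell, the second not without replicate 1 at 15 min (adjusted p = 0.25) or replicate 2 at 10 min (0.24). In mRNA decay, the CCCH zinc finger genes SZF1 (1.29 ± 0.06) and SZF2 (1.38 ± 0.06) and the deadenylases CAF1a (0.89 ± 0.06) and CAF1b (1.02 ± 0.07) rose. TZF1, another CCCH zinc finger gene, fell by 0.27 on the log2 scale, a call lost without replicate 1 at 10 min (adjusted p = 0.13). CAF1a was at 183 and 180 CPM, then at 328 and 347 CPM. The decapping and exonuclease genes DCP2, DCP5, VCS and XRN4 had changes of 0.03 to 0.08 and did not pass.

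At the cell surface, 23 of 28 pattern receptors and receptor kinases rose and 2 fell (median 0.65). The chitin receptor LYK5 rose by 1.54 ± 0.06, the adaptor kinase SOBIR1 by 1.27 ± 0.07 and the EF-Tu receptor EFR by 1.09 ± 0.09. FLS2, the flagellin receptor, was at 67.0 and 60.5 CPM at 10 min and at 83.4 and 85.3 CPM at 15 min (0.40 ± 0.10, adjusted p = 0.022), and its call was lost without either library of 15 min (adjusted p = 0.092 and 0.12) or replicate 2 at 10 min (0.14). BAK1 rose by 0.26 ± 0.06 (adjusted p = 0.0023), a call lost without replicate 1 at 10 min (0.074). RLP23, a receptor of microbial NLP peptides, fell from 3.00 and 3.21 CPM to 2.07 and 1.59 CPM (-0.76 ± 0.21), a call lost without replicate 2 of either time (adjusted p = 0.088 and 0.22). WAK2, a wall-associated kinase, changed by -0.34 ± 0.09, a call lost without replicate 1 at 15 min (adjusted p = 0.15) or either library of 10 min (0.071 and 0.061).

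Cysteine-rich receptor-like kinases were also counted as an annotated family, chosen after values were seen. Of 37 tested 19 rose and 0 fell, 51.4% against 7.94% of all genes. Some of these genes have near-identical copies, and reads that align to more than 1 place are not assigned to them. The letters TIR-NBS in the annotated name, found in intracellular immune receptors, matched 93 genes tested, 35 higher and 1 lower. That match did not ask for the letters LRR, so it is not a count of TIR-NBS-LRR receptors alone. The product name Disease resistance protein (TIR-NBS-LRR class) family had 28 of 58 higher and 0 lower. VQ proteins had 11 of 26 higher and 0 lower. Kinases matched by the letters lectin in the annotated name had 24 of 70 and 1. That match also took in malectin-type kinases such as FER, so it is not a count of lectin kinases alone. Ribosomal proteins had 2 of 317 higher and 2 lower.

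Below the receptors, 7 of 10 receptor-like cytoplasmic kinases rose and 0 fell. BIK1 went from 80.2 and 88.4 CPM to 119 and 122 CPM (0.52 ± 0.06) and RIPK rose by 0.57 ± 0.06. Among MAP kinase cascade genes, 9 of 30 rose and 0 fell (median 0.16). MPK3 was at 138 and 139 CPM and then at 366 and 407 CPM (1.48 ± 0.06, adjusted p = 2.2e-15). MPK6 changed by 0.06 ± 0.06 (adjusted p = 0.68) and MPK4 by 0.06 ± 0.06 (adjusted p = 0.72), and neither passed. Upstream kinases MKK4 (0.75 ± 0.07) and MAPKKK14 (0.87 ± 0.07) rose. Of 12 phosphatases and VQ proteins, 5 rose, among them AP2C1, a phosphatase that inactivates MAP kinases (1.05 ± 0.05), and MKS1 (0.78 ± 0.08).

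Peptide signals rose in 8 of 12 cases. PROPEP3, precursor of a danger peptide, went from 6.53 and 8.04 CPM to 25.9 and 34.1 CPM (2.05 ± 0.12, adjusted p = 5.1e-09). Calcium genes rose in 19 of 28 cases with 0 falls (median 0.73). CML37, a calmodulin-like protein, rose by 2.2 ± 0.10, and the kinases CPK28 and CPK32 by 1.67 ± 0.08 and 1.26 ± 0.06. The glutamate receptor-like channel gene GLR2.8 went from 0.683 and 1.16 CPM to 6.22 and 5.68 CPM (2.71 ± 0.22). Touch genes TCH4 (1.15 ± 0.08) and TCH3 (0.97 ± 0.07) were among 5 of 11 that rose. Some of the 5, TCH3 among them, are counted in the calcium list too. XTH24 rose by 0.23, a call lost without replicate 1 at 10 min (adjusted p = 0.22) or replicate 2 at 15 min (0.23), while 3 expansin and 3 other XTH genes of that list did not pass.

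Of 16 oxidative burst and redox genes 7 rose. RBOHD was at 43.6 and 49.5 CPM at 10 min and at 183 and 197 CPM at 15 min, a 4.08-fold rise (2.03 ± 0.07, adjusted p = 3.8e-17). The libraries of the 2 times did not overlap. The other oxidase genes RBOHA, RBOHB, RBOHC, RBOHE and RBOHF had changes of -0.13 to 0.17 and did not pass. OXI1, a kinase activated by hydrogen peroxide, rose by 2.26 ± 0.11 and the hydrolase NUDT7 by 1.66 ± 0.07.

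Secretion and penetration resistance genes rose in 10 of 12 cases (median 1.11), and so did 11 of 12 ubiquitin ligases (median 1.11). The transporter PEN3 was at 395 and 440 CPM and then at 1010 and 1092 CPM (1.33 ± 0.07). Membrane fusion proteins SYP121 (1.18 ± 0.06), SYP122 (1.39 ± 0.07) and the exocyst subunit EXO70B2 (1.41 ± 0.07) rose, while the callose synthase GSL5 changed by 0.03 ± 0.06 and did not pass. The ligases ATL31 (1.45 ± 0.06), PUB22 (1.25 ± 0.06) and PUB23 (1.26 ± 0.06), the last pair known to dampen pattern-triggered immunity, rose. Of 18 genes used as markers of pattern-triggered immunity 16 rose (median 1.31). Most of the 18, such as RBOHD, PUB22, PUB23, WRKY33 and MPK3, are also counted in other lists, so this is not a separate result. FRK1, a receptor kinase gene used as a late marker, did not pass, at 1.44 and 2.18 CPM and then 1.84 and 3.44 CPM (0.58 ± 0.30, adjusted p = 0.34).

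**Figure D1:**
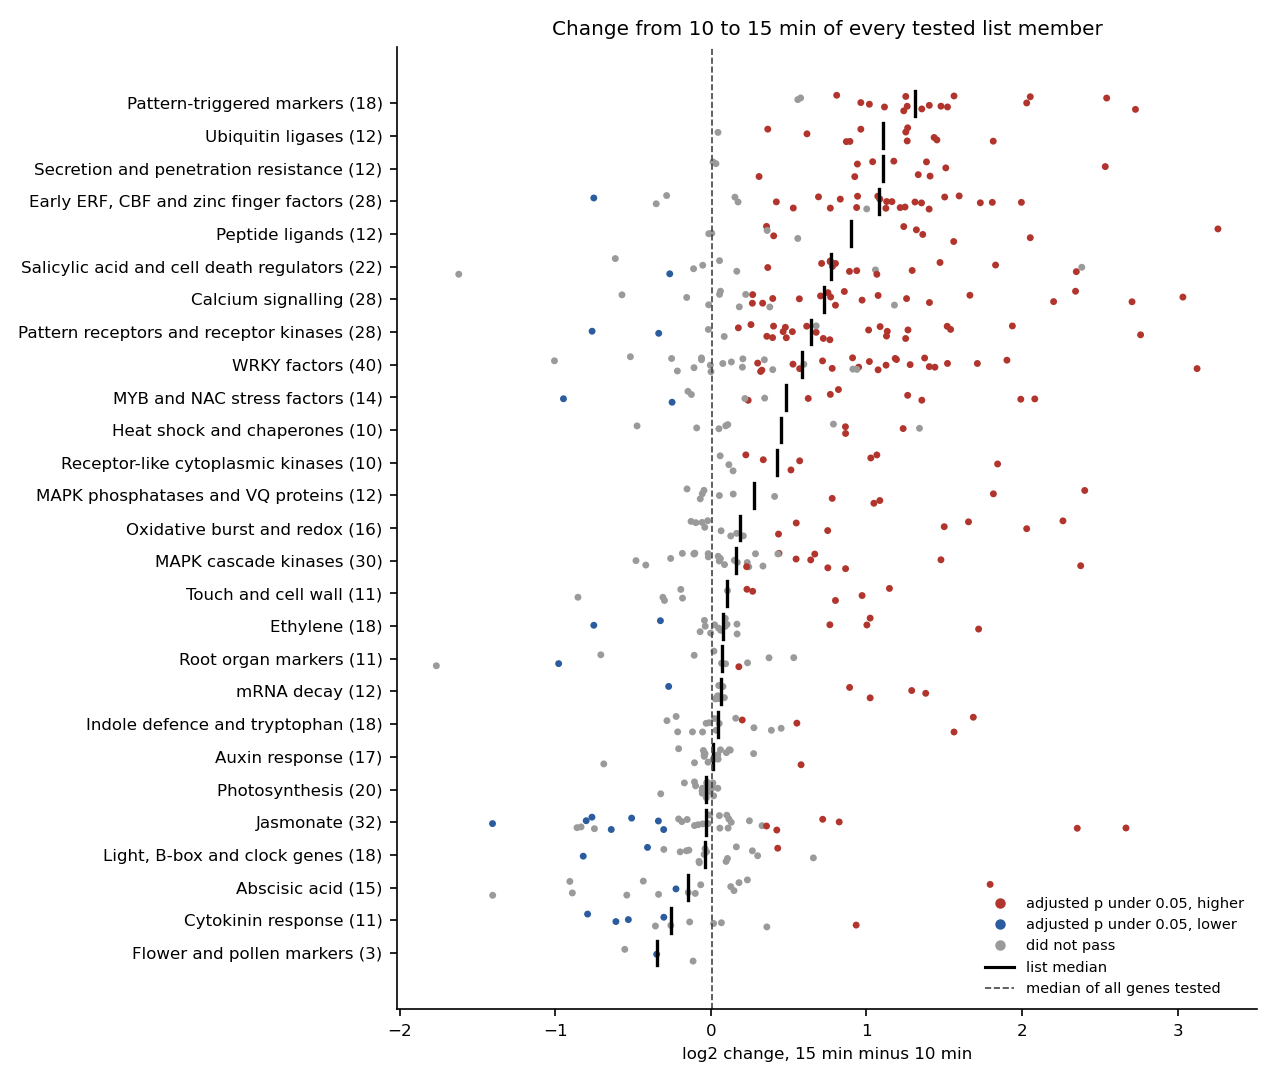
Log2 change from 10 to 15 min (horizontal axis) of every tested member of 27 gene lists, with the number tested in brackets, the list median as a bar and the median of all genes tested as a dashed line. Markers of pattern-triggered immunity, ubiquitin ligases and secretion genes have the medians farthest to the right, up to 1.31, the 20 photosynthesis genes lie between -0.32 and 0.05, and jasmonate genes spread to both sides.

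Salicylic acid and cell death regulators rose in 13 of 22 cases, and 1 fell (median 0.78). PAD4, a lipase-like partner of EDS1, was at 13.5 and 14.7 CPM and then at 40.8 and 37.5 CPM (1.47 ± 0.08, adjusted p = 6.1e-14). EDS1 rose by 1.29 ± 0.09, SAG101 by 1.07 ± 0.06 and the helper receptor ADR1-L2 by 0.77 ± 0.05. SARD1, a regulator of salicylic acid synthesis, rose by 2.35 ± 0.13 and its relative CBP60G by 1.83 ± 0.12. The synthesis enzyme ICS1 went from 13.4 and 13.1 CPM to 16.1 and 18.1 CPM (0.37 ± 0.09, adjusted p = 0.0041), and its call was lost without replicate 2 at 15 min (0.13). NPR4, a salicylic acid receptor, fell by 0.26 on the log2 scale, a call lost without either 15 min library (adjusted p = 0.25 and 0.12) or replicate 2 at 10 min (0.34).

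Jasmonate genes went both ways, 6 of 32 higher and 7 lower, with a median of -0.03. LOX3 went from 39.8 and 43.4 CPM to 195 and 230 CPM (2.36 ± 0.08, adjusted p = 4.5e-15), and LOX4 from 31.2 and 42.2 CPM to 202 and 262 CPM. The synthesis gene AOC3 rose by 0.83 ± 0.10, while AOS changed by 0.10 ± 0.06 and did not pass. Of the JAZ repressors of jasmonate responses, JAZ2 fell from 63.0 and 73.3 CPM to 37.1 and 40.9 CPM (-0.80 ± 0.07, adjusted p = 3.5e-09). JAZ7 (-1.40 ± 0.22), JAZ10 (-0.76 ± 0.13) and JAZ9 (-0.64 ± 0.09) fell as well. JAZ10 had 10.7 and 15.7 CPM at 15 min, both below the 21.4 and 23.6 CPM of 10 min. Falls of JAZ3 and JAZ6, and the rise of JAZ1, were lost without replicate 1 at 15 min (adjusted p = 0.40, 0.15 and 0.11). Leaving out replicate 2 at 10 min ended the same falls (0.27 and 0.15), and the rise of JAZ1 ended without replicate 2 at 15 min (0.12) or replicate 1 at 10 min (0.065). At 10 min against 0 min, which shares libraries with the step, 15 of the 32 had risen.

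Ethylene genes also went both ways, 4 of 18 higher and 2 lower. The synthases ACS7 (1.72 ± 0.07), ACS8 (1.02 ± 0.15) and ACS6 (1.00 ± 0.06) rose. EBF2, an F-box protein that removes the ethylene factor EIN3, fell from 170 and 162 CPM to 105 and 92.2 CPM (-0.75 ± 0.07, adjusted p = 2.6e-08), and EBF1 by 0.32 on the log2 scale. The receptor genes and EIN2, EIN3 and CTR1 did not pass.

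In the cytokinin list 4 of 11 genes fell and 1 rose (median -0.26). ARR6, a type-A response regulator that damps cytokinin signalling, went from 95.6 and 97.8 CPM to 57.0 and 54.7 CPM (-0.79 ± 0.10, adjusted p = 4.2e-05), and ARR8 fell by 0.53 ± 0.07. ARR5 (-0.61 ± 0.13) and ARR9 (-0.30 ± 0.09) fell too, but without replicate 1 at 15 min 2 members of the list were called lower, and neither ARR5 (adjusted p = 0.11) nor ARR9 (0.32) was. ARR5 also lost the call without any 1 of the other 3 libraries (0.11 to 0.13), and ARR9 without either library of 10 min (0.26 and 0.12). The degrading enzyme CKX4 rose by 0.93 ± 0.13. At 10 min against 0 min 9 of the 11 had risen, in a comparison that shares the 10 min libraries.

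Abscisic acid, auxin and light and clock genes had 1 riser in each list, shares near the 7.94% of all genes. The abscisic acid hydroxylase CYP707A3 rose by 1.80 ± 0.10, 1 of 15 tested, and the phosphatase HAB1 fell by 0.22 on the log2 scale, a call lost without replicate 1 at 15 min (adjusted p = 0.47) or either library of 10 min (0.17 and 0.051). Of 17 auxin response genes 1 rose, IAA19, by 0.58 ± 0.19 (adjusted p = 0.046), a call lost without replicate 2 at 15 min (0.44) or either library of 10 min (0.14 and 0.19). Of 18 light and clock genes BBX15 (-0.82 ± 0.08) and BBX14 (-0.41 ± 0.07) fell and TOC1 rose by 0.43 ± 0.06. Of 20 photosynthesis genes 0 rose and 0 fell (edgeR's quasi-likelihood test), with changes from -0.32 to 0.05 and 1 of them lower at an unadjusted p under 0.05 and 0 by DESeq2. Of 18 genes of indole defence 4 rose, IGMT2 by 1.69 ± 0.09 and the P450 CYP81F2 by 1.56 ± 0.08 among them.

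By the same ranking, the 4 largest falls were of SAUR genes, short auxin-induced genes linked to cell expansion. SAUR14 was at 20.8 and 18.3 CPM at 10 min and at 5.18 and 4.99 CPM at 15 min (-1.94 ± 0.15, adjusted p = 1.4e-08). SAUR6 went from 28.9 and 29.2 CPM to 11.5 and 8.74 CPM (-1.52 ± 0.09), SAUR50 from 17.0 and 14.0 CPM to 5.89 and 5.21 CPM (-1.49 ± 0.13). The ranking took only genes whose libraries of the 2 times did not overlap, so their distance is no added result. In all 3 the levels at 5 min, 36.9 to 38.2 CPM for SAUR14, were higher still. Counted as an annotated family after values were seen, 14 of 57 SAUR-like genes tested fell, 24.6% against 2.32% of all genes, and 2 rose. Without replicate 1 at 15 min 13 fell. The 14 changes ran from -2.52 to -0.95, and 9 of the 14 had fewer than 3 CPM in every library. SAUR48 (1.48 ± 0.20) and SAUR71 (0.88 ± 0.17) rose, and 41 did not pass.

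**Figure D2:**
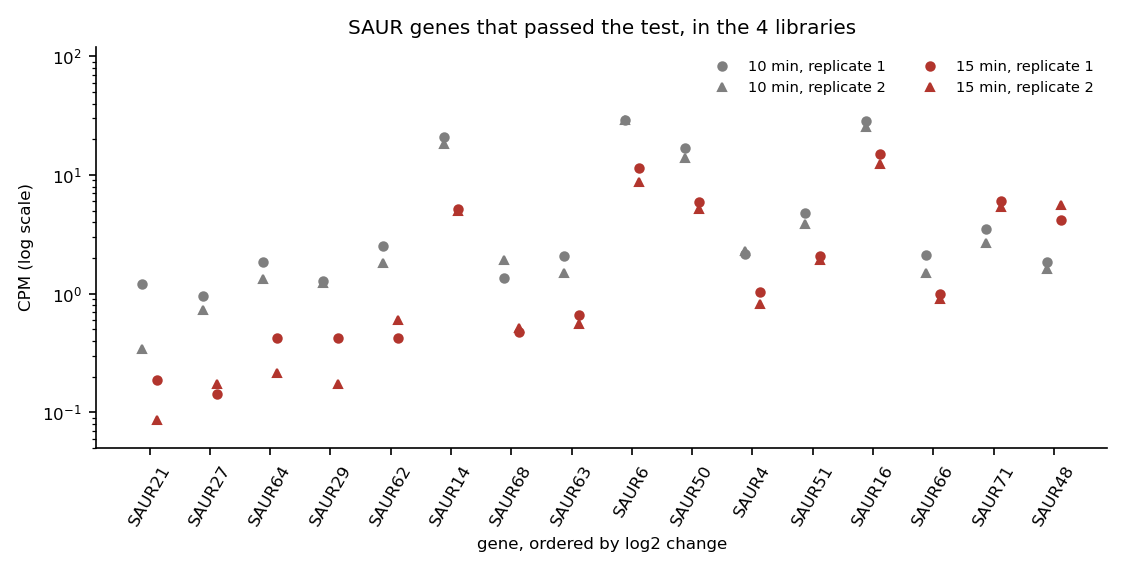
CPM (log scale) at 10 min (grey) and 15 min (red) of the 16 SAUR-like genes that passed the test, ordered by log2 change, with 1 symbol per library. The 14 genes to the left fell, SAUR14 from 20.8 and 18.3 to 5.18 and 4.99 CPM, and SAUR71 and SAUR48 on the right rose.

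Other genes with the largest falls had mixed roles. MRN1, the marneral synthase of a root triterpene cluster, fell from 22.7 and 25.1 CPM to 12.6 and 11.7 CPM (-0.98 ± 0.10), and the neighbouring P450 gene CYP705A12 by 0.72 on the log2 scale. MRN1 did not move in 1 direction over the course, with 28.4 and 33.5 CPM in water, 13.7 and 13.3 CPM at 5 min and 17.1 and 21.0 CPM at 30 min. The kinase regulator gene MAKR6 (-0.89 ± 0.12), the molybdate transporter gene MOT1 (-0.85 ± 0.18) and the oxygenase gene MIOX4 (-0.72 ± 0.13) fell too. The summed root markers, of which MRN1 is 1, were 166.6 and 178 CPM at 10 min and 170.3 and 157.8 CPM at 15 min.

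Whether a gene moved differently than in the 5 min before was tested by the difference of the 2 steps. It passed for 452 genes (2.17%), 202 with a larger (0.968%) and 250 with a smaller value (1.2%) from 10 to 15 min. RBOHD changed by 0.32 from 5 to 10 min and by 2.03 in the next step (difference 1.71 ± 0.12, adjusted p = 3.1e-10). ACA1, a calcium pump, was at 70.5 and 78.9 CPM at 10 min and at 268 and 304 CPM at 15 min, with 66.1 and 69.0 CPM in water (difference 1.74). CNBT1, a cyclic nucleotide-gated channel, was at 9.11 and 8.94 CPM at 10 min, close to the 8.44 and 8.45 CPM of water, and then at 27.6 and 34.0 CPM (difference 1.73).

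RLP2 (1.88, after 0.80 in the step before), the channel genes CNGC3 (1.36) and CNGC13 (1.33), the immune receptor gene WRR4 (1.20), PGSIP7 (1.16, after 1.02) and PAD4 (1.11) had larger steps as well. CNGC3 lost the call without replicate 1 at 10 min (adjusted p = 0.066), and CRK13 (1.34) lost it without any 1 of the 4 libraries (0.057 to 0.27).

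Among genes with the smaller value were early factors whose log2 rise slowed. WRKY40 rose by 4.03 from 5 to 10 min and by 1.37 ± 0.07 from 10 to 15 min, from 110 and 108 CPM to 261 and 304 CPM (difference -2.66, adjusted p = 3.1e-12). ZAT6 (-2.65), ERF5 (-2.45), ERF11 (-2.42), WRKY53 (-2.39) and AP2C1 (-2.38) slowed in the same way. CML37 (-3.70), CCR4 (-3.33) and the exocyst gene EXO70H4 (-3.0) had the largest differences, CML37 and CCR4 from levels under 0.3 CPM at 5 min. ORA47, an ERF-type factor, stopped rising: it was at 2.69 and 2.37 CPM at 5 min, at 14.3 and 13.9 CPM at 10 min and at 10.5 and 11.6 CPM at 15 min (-0.35 ± 0.13, adjusted p = 0.10 for the step alone). Without 1 of the 10 min libraries 280 and 284 genes passed. The 2 steps share the 10 min libraries, whose error enters both with opposite sign.

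**Figure D3:**
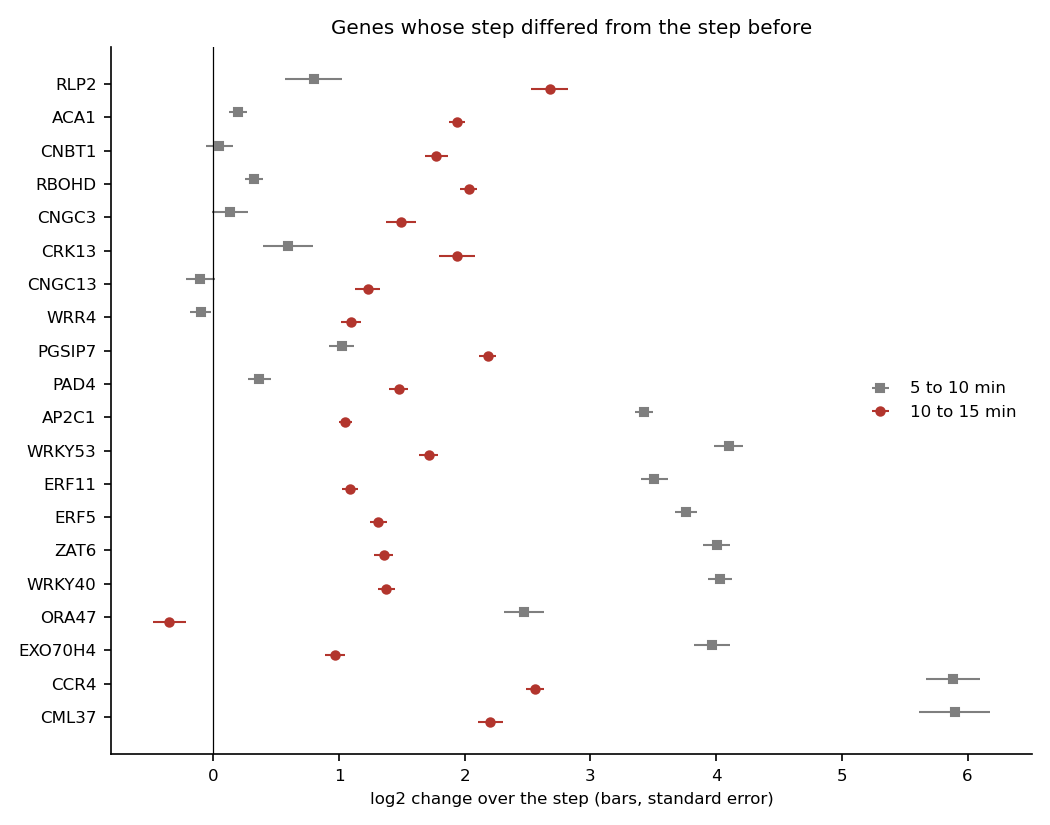
Log2 change (horizontal axis) from 5 to 10 min (grey squares) and from 10 to 15 min (red circles) with standard errors, for the 20 genes named for the largest tested differences between the steps. RBOHD, ACA1 and CNBT1 moved by 0.05 to 0.32 in the first step and by 1.77 to 2.03 in the second, while WRKY40 went from 4.03 to 1.37.

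Against the following 15 min, scaled to 5 min, the step differed for 1121 genes (5.37%), 884 with the larger value before 15 min (4.24%) and 237 with the smaller (1.14%). CYP82C3, a P450 gene, was at 0.455 and 0.470 CPM at 10 min, at 7.96 and 10.7 CPM at 15 min and at 192 and 187 CPM at 30 min, a step of 4.33 ± 0.22 and a difference of 2.88 ± 0.27 per 5 min. BPS3 had nearly ended its rise, with 16.1 and 20.5 CPM at 15 min and 18.2 and 19.8 CPM at 30 min (difference 2.34). ERF15 went from 4.78 and 4.75 CPM to 3.39 and 3.70 CPM, a change that did not pass (-0.42 ± 0.15, adjusted p = 0.067), and then to 42.2 and 38 CPM at 30 min (difference -1.59).

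The genes of the step were followed into B2, where wild-type seedlings with 3MBiP and 2 nM flg22 were set against 3MBiP alone (3 libraries per group, 20607 genes tested in both sets). At 30 min of flg22 43.2% of 21223 genes were called there, and 4688 genes were higher (22.1%) and 4474 lower (21.1%). Of the genes that rose in the step 91.0% were called higher, against 22.6% of all genes tested in both, and of those that fell 49.3% were called lower, against 21.5%, and 20.0% were called higher. Read the other way, genes that rose in the step made up 32.4% of all genes higher in B2 at 30 min, and genes that fell 5.35% of those lower.

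After wounding, with inhibitor in both groups, 53.6% of all genes were called, 28.7% higher and 24.8% lower. Genes that rose in the step were called higher in 72.8% of cases. Genes that fell were called lower in 27.7%, near the share of all genes, and higher in 46.4%. JAZ2 fell in the step, changed by -0.17 ± 0.11 at 30 min of flg22 in B2 (adjusted p = 0.24) and was higher after wounding by 3.89 (adjusted p = 7.6e-24). SAUR14 was lower in B2 at 30 min of flg22 (-2.93 ± 0.13) and after wounding (-2.46). At 1 h of flg22, where 60.4% of all genes were called, 29.8% higher and 30.6% lower, 84.8% of the genes that rose and 46.4% of those that fell were called in the same direction, and 26.4% of those that fell were called higher.

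Genes of the step differed in structure from the rest, given as a description. Of the genes that rose 29.2% had a single exon, of those that rose at least 2-fold 35.4% and of those that fell 29.1%, against 17.2% of all genes tested. The median gene had 3 exons in both groups and 4 over all genes. The median level was 26.7 CPM for genes that rose and 24.8 CPM for those that fell, against 15.4 CPM for all.

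Promoter windows of 300 bases, 250 before and 50 after the annotated start, were read from the RefSeq TAIR10.1 genome for all 2142 genes and searched on both strands. The W-box core (TTGACC or TTGACT), bound by WRKY factors, was present in 50.8% of windows of genes that rose, in 61.1% of those that rose at least 2-fold and in 26.4% of those that fell, against 33.0% of all genes tested. The letters CGCGTT, the core of the rapid stress response element (RSRE), were present in 11.5% and 1.24%, against 3.83%. Without replicate 1 at 15 min the second share was 0%. The G-box CACGTG was present in 13.8% of windows of genes that fell, in 6.58% of those that rose and in 8.59% of all. The GCC-box GCCGCC was present in 3.08%, 2.68% and 2.68%.

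The windows of 4 genes show these motifs in place, with the motifs in capitals and each sequence written 5' to 3' on the strand of its gene. They are examples and not typical of their groups. CGCGTT was in 11.5% of windows of genes that rose, and the G-box in 13.8% of those that fell. WRKY30 is printed as the top riser among genes with a symbol and a mean of at least 5 CPM, with 3 W-box cores (chr5:8154661-8154960, minus strand). CML24, a touch-induced calmodulin-like gene that rose from 95.5 and 88.1 CPM to 153 and 167 CPM, holds CGCGTT on both strands at 2 places, 4 matches in all (chr5:14999570-14999869, minus strand). SYP122 holds 1 W-box core and 1 CGCGTT (chr3:19427181-19427480, minus strand). JAZ2, which fell, holds 1 G-box and no W-box core (chr1:28150397-28150696, minus strand). A match is no evidence of binding.
WRKY30: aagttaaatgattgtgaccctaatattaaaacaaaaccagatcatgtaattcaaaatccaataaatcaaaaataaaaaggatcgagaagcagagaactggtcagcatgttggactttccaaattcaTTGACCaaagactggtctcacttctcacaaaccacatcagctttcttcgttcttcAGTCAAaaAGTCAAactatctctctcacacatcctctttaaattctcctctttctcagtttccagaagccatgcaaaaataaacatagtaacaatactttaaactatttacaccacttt
CML24: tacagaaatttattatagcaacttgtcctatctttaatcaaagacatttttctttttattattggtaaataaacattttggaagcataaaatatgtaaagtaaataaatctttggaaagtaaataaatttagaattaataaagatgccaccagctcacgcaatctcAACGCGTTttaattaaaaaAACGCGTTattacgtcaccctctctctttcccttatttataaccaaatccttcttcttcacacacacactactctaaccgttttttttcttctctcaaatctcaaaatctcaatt
SYP122: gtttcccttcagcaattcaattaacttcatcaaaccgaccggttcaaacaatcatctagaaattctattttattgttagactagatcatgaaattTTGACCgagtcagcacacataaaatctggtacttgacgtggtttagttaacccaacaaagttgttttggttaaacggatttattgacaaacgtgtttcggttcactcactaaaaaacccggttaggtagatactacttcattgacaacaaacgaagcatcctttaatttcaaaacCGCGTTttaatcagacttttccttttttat
JAZ2: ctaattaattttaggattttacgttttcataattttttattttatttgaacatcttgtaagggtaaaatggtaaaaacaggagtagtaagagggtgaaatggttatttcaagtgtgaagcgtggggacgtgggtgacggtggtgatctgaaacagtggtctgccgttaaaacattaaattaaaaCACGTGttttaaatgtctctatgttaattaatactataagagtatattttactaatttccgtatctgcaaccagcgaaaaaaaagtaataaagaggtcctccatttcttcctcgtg

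**Figure D4:**
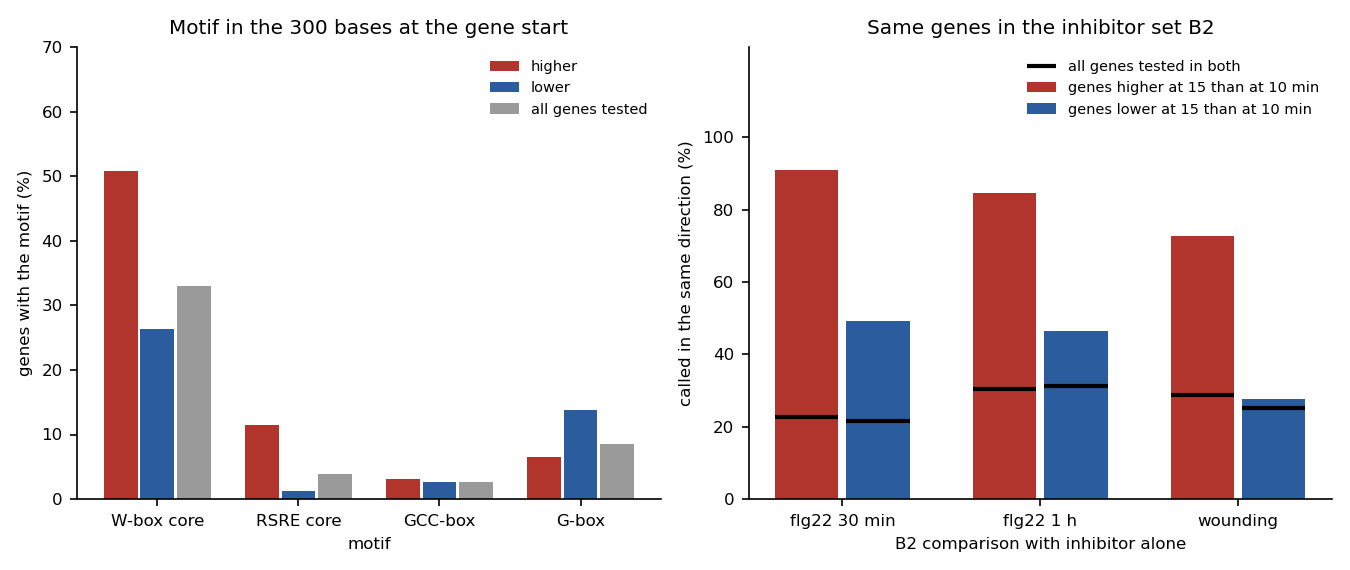
Left, percent of genes with each motif in the 300-base window for genes higher at 15 min, lower at 15 min and all genes tested. Right, percent of the same genes called in the same direction in B2, with black lines for all genes tested in both sets. The W-box core was in 50.8% of genes that rose, and 91.0% of them were higher in B2 at 30 min of flg22.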

How the data were processed

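RNA of 8 pooled seedlings per library was sequenced with a kit that does not mark strand, per the labels' protocols. The deposited files hold raw read counts per gene, made with TopHat, HTSeq and TAIR10, per the submitters' processing notes. Their versions are not given in the sources used here. Non-unique alignments were not counted to genes, which lowers counts of near-identical copies. From the counts, edgeR 4.0.16 in R 4.3.3 (filterByExpr, TMM factors, robust quasi-likelihood test, Benjamini-Hochberg adjustment) was fitted to the 12 libraries of the course. B2 was fitted separately over all 36 of its libraries, those of impk36 and impk4 among them. CPM use the TMM factors. The comparison of 15 with 10 min was tested on simulated counts, with 50 genes per size of change. Rises of 1 and 0.5 (log2) were called in 90% and 64% of cases, falls of the same sizes in 78% and 54%. Of unchanged genes 0.0437% were called. The counts were drawn with the spread fitted over all times, so the simulation cannot show the effect of a wider spread at 15 min. Named genes were up to 4 per direction and list, and 15 per direction by log2 change with a mean of at least 5 CPM, non-overlapping libraries and a symbol. For differences between steps they were up to 10 per direction, by the same ranking without the condition of non-overlapping libraries. Other genes are given with values only and were chosen after their values were seen. The members and lists were chosen with earlier results of these data known. Alternatives were DESeq2 1.42.0, other scaling, no filter, a replicate block and leaving out each library.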

Additional observations from a re-analysis of the deposited data

Results flagged for a closer look

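The step differed from the preceding 5 min for 452 genes and from the following 15 min, per 5 min, for 1121 genes, by a test of the difference itself. The difference from the preceding step was 1.88 (log2) for RLP2, 1.74 for ACA1, 1.73 for CNBT1, 1.71 for RBOHD and 1.36 for CNGC3. It was -3.70 for CML37, -3.33 for CCR4, -3.0 for EXO70H4, -2.82 for ORA47 and -2.66 for WRKY40. Against the following step it was 2.88 for CYP82C3, 2.41 for RLP2 and 2.34 for BPS3, and -1.59 for ERF15, -1.23 for SAUR14 and -1.20 for MRN1. The cause of these differences was not tested.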

How the results depend on the processing

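Of 1566 values of 174 named genes under alternatives, 1481 kept direction and call, or stayed without a call, 82 lost the call, 3 gained it and 0 changed sign. Counted by gene, 24 of the 174 lost the call under 1 or more alternatives. Of 360 values for 40 differences between steps, 349 kept the call and 11 lost it, and 5 of the 40 lost it under 1 or more. With DESeq2 1318 genes rose and 280 fell. At an adjusted p under 0.01 246 fell, and leaving out 1 library gave 247 to 337. With the replicate block 1655 rose and 501 fell, and replicate 1 deviations at the 2 times correlated at -0.0294, so the numbers were not taken as pairs. The difference from the preceding step passed for 833 genes with no filter on low counts and for 280 to 425 with 1 library left out. With 1 library left out 90.8 to 94.3% of genes that rose were higher in B2 at 30 min, and 44.3 to 53.9% of those that fell were lower, and over all alternatives 86.5 to 95.8% of genes that rose were higher. Falls were counted again without replicate 1 at 15 min, an alternative chosen after seeing the data. They numbered 1 in the MYB and NAC list, 1 among receptors and 0 in the salicylic acid and abscisic acid lists. They numbered 0 among kinases matched by the letters lectin and 2 in the cytokinin list. The rises then numbered 0 among root markers and 1 among seed markers, and CGCGTT was in 0.0% of windows of genes that fell. The cause was not tested.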
